A study of Mus musculus with 6 samples.

Results

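The genes described here encode the proteins of the cytosolic ribosome, measured in hepatocytes of undamaged mouse liver and of liver 48 h after partial hepatectomy (PHx), the surgical removal of part of the liver that makes the remaining hepatocytes divide. They were chosen by name: protein-coding genes of the GENCODE M21 annotation whose symbol is Rpl or Rps followed by a digit, with Rplp0, Rplp1, Rplp2 and Rpsa, and without the Rps6k kinases and Rps19bp1. The rule used no measured value and gave 91 of the 55450 annotated genes, 57 of the large (60S) subunit and 34 of the small (40S) subunit. Of these, 77 are the core ribosomal protein genes, 8 are paralogs (related genes with a name of their own, such as Rpl22l1) and 6 are copies annotated as protein coding whose names mark them as derived from another member (such as Rps12-ps3).

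RNA from 6 hepatocyte preparations was sequenced, 3 at 0 h (undamaged liver) and 3 at 48 h after PHx. The labels give C57BL/6 mice aged 10 to 12 weeks on a normal diet. The study's methods name C57BL/6J and a slightly younger age, a difference that was not resolved here. By the same methods all were male, and each preparation came from a different mouse. Hepatocytes were freed by perfusing the liver with collagenase in 2 steps, and total RNA was taken up in TRIzol. The labels name no sham-operated group, so an effect of the operation itself and an effect of the lost liver tissue cannot be told apart.

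A ribosome reads messenger RNA and joins amino acids into protein. Its small subunit finds the start of the message and decodes it, and its large subunit forms the peptide bonds. Each core ribosomal protein is present in a single copy per ribosome apart from the acidic stalk proteins P1 and P2, so cells that build ribosomes need these proteins in matched amounts. In mammals the messages for ribosomal proteins belong to the TOP mRNAs, which begin with a C followed by a run of pyrimidines, and growth signals that pass through the kinase mTORC1 raise their translation. Hepatocytes grow before they divide after PHx, and ribosome synthesis is among the processes that set their capacity to make protein.

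As examples of the 5′ ends of these genes, the 30 bases around the start annotated by RefSeq are given for 12 members that the results below return to. They hold 15 bases before the start and 15 from the start on (strand of the gene, build GRCm38.p6). Capitals mark a start tract, defined as a C at the first base followed by at least 4 pyrimidines (C or T), with the run written out to its end. The first 6 members have such a tract:
Rps6 (chr4:86857353-86857382, minus strand): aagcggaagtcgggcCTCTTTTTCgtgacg
Rpl28 (chr7:4792950-4792979, plus strand): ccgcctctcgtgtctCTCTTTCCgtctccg
Rplp2 (chr7:141447636-141447665, plus strand): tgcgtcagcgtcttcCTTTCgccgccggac
Rps15a (chr7:118116133-118116162, minus strand): ctctctttctgccatCTTCCCTCgccggtg
Rpl15 (chr14:18270972-18271001, minus strand): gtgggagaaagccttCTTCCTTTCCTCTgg
Rpl38 (chr11:114668565-114668594, plus strand): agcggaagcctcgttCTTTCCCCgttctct
The next 6 have none at the annotated base, although runs of pyrimidines lie close by in several of them:
Rps19 (chr7:24884577-24884606, plus strand): tccgaaatctcgcgagactcgacgcccgac
Rpsa (chr9:120127751-120127780, plus strand): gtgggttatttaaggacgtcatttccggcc
Rpl41 (chr10:128549154-128549183, minus strand): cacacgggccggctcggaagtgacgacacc
Rpl12 (chr2:32961697-32961726, plus strand): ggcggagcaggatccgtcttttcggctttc
Rpl22 (chr4:152325711-152325740, plus strand): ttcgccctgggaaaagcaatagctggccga
Rpl35a (chr16:33056499-33056528, plus strand): gcgcctgtggaggtgaggggggttcctgct

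A RefSeq window was matched to 65 of the 91 members. A start tract was present in 13 of the 65 (20%), against 2.14% of the 16514 genes with a window. Allowing the C to lie within 5 bases of the annotated start gave 28 of 65 members (43.1%), against 18.8% of all genes. The annotated start is a reference position, and where transcripts began in these hepatocytes was not measured.

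Among short promoter motifs searched on both strands of the 300-base window (250 before the start and 50 from it on), the letters CCGGAAG, which ETS-family factors such as GABP recognise, were in 25 of 65 members (38.5%) against 12.4% of all genes. The letters AAGATGG, the core of the YY1 site, were in 13.8% of the members and 6.42% of all genes. The E-box CACGTG, the letters read by MYC and related factors, was at 7.69% and 8.09%. The letters GGGCGG were in 60% of the members and 48.5% of all genes, TATAAA in 9.23% and 12.9%, and CCAAT in 30.8% and 38.5%. These are matches of letters, and no factor's binding was measured. The 150 bases before the start of 3 members with the ETS letters (in capitals, on either strand) show their place in promoters of a small-subunit gene, a large-subunit gene with a start tract and the large-subunit gene with the third largest increase below:
Rps6 (chr4:86857368-86857517, minus strand): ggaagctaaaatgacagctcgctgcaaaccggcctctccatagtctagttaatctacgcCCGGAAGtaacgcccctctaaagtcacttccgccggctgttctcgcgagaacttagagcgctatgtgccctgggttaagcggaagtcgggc
Rpl38 (chr11:114668430-114668579, plus strand): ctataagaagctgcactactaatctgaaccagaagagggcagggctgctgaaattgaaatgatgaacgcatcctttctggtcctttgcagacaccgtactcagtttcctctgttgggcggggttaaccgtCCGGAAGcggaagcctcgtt
Rpl41 (chr10:128549169-128549318, minus strand): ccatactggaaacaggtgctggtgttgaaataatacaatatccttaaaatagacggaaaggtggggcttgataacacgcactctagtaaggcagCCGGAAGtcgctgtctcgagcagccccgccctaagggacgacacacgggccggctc

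The libraries held 31419443 to 36346220 gene counts, and 0 h replicate 2 stood apart in the ribosomal protein genes. It had the lowest level of the 3 libraries at 0 h in 76 of the 81 members tested, with a median 0.54 below the other 2 libraries on the log2 scale. Over all genes tested that median difference was -0.01, and 40.1% of genes were lowest in it. Other libraries also held a steady place in these genes: 0 h replicate 1 was the highest of its group in 65 of the 81 members, and 48 h replicate 3 was the lowest of its group in 73, a median 0.23 below the other 2. Of the 6 libraries, 0 h replicate 2 had the largest share of reads on no gene, 32.7% of the reads in its count file against 24.3% to 29.3% in the other 5. The part of that share in the low ribosomal protein levels was not tested, and values without 0 h replicate 2 are given beside the summed share, the counts of calls and the largest changes. Defining hepatocyte genes were abundant in all 6 libraries, although the sum over 15 markers was lower in every library at 48 h (87982 to 116543 CPM, counts scaled to the library's normalized total) than in any at 0 h (121894 to 140865 CPM), with 5 markers called lower and 3 higher. Alb alone held 55123 to 72883 CPM of that sum at 0 h and 32307 to 39692 at 48 h, so the sum does not show a fall of the other markers. The 10 endothelial markers all fell, from a summed 247 to 390 CPM at 0 h to 178 to 195 at 48 h. Kupffer cell markers summed to 78.3 to 118 at 0 h and 112 to 137 at 48 h, with 2 of 10 called higher and none lower. Stellate cell markers summed to 71.1 to 118 and 59.9 to 72.2, cholangiocyte markers to 9.38 to 20.8 and 16.6 to 26.1, and erythroid markers to 56.0 to 86.7 and 18.7 to 40.4 with Alas2 as the 1 gene tested. Lymphocyte markers stayed at or below 0.559 and neutrophil markers at or below 1.51 CPM, and the bile duct keratins Krt19 and Krt7 averaged 0.0543 and 0.0334 CPM at 0 h. The part of other cell types in the ribosomal protein results was not tested, and fewer cells of a type cannot be told apart from less RNA per cell in bulk samples.

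Ribosomal protein genes together took a larger share of gene counts at 48 h than at 0 h. The 91 members held 0.468%, 0.302% and 0.419% of all gene counts in the libraries at 0 h. They held 0.675%, 0.741% and 0.625% in the libraries at 48 h. Every library at 48 h was above every library at 0 h, and the means were 0.397% ± 0.0853 and 0.680% ± 0.0582 (SD, n = 3 each), a 1.72-fold difference of 0.284 percentage points on which no test was run. Without 0 h replicate 2 the difference was 0.236 percentage points. Both subunits had such a difference, as the 60S share went from 0.231% ± 0.0501 to 0.388% ± 0.0330 (1.68-fold) and the 40S share from 0.166% ± 0.0354 to 0.292% ± 0.0252 (1.76-fold). The ratio of 60S to 40S counts was 1.42, 1.40 and 1.36 at 0 h and 1.33, 1.32 and 1.33 at 48 h, so it was lower in every library at 48 h than in any at 0 h, with no test run. The 40S gene Rpsa alone held 5.28%, 4.94% and 5.50% of the counts on the 91 members at 0 h and 7.07%, 6.44% and 6.07% at 48 h. Its part in the ratio was not tested, so a shift across the subunits as a whole is not shown. After TMM normalization, which sets a library's scale from the bulk of its genes, the summed level was 4259 ± 957 CPM at 0 h and 6348 ± 606 at 48 h, a 1.49-fold difference. The smaller fold follows from the scaling, since the TMM factors were 0.914 to 0.950 at 0 h and 1.02 to 1.11 at 48 h.

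**Figure D1:**
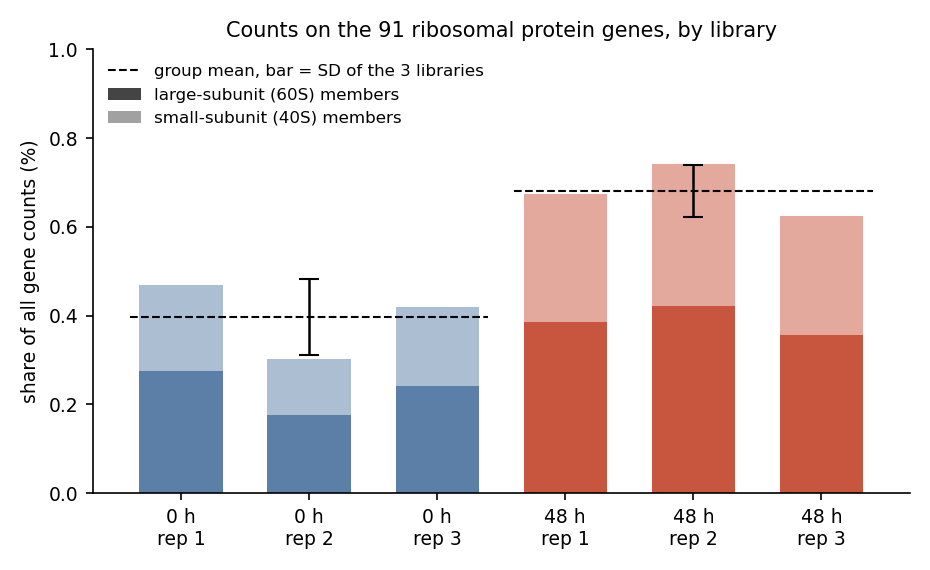
Bars give the share of all gene counts (%) on the 91 ribosomal protein genes in each of the 6 libraries, split into 60S (dark) and 40S (light) members, with dashed lines at the group means and error bars of 1 SD (n = 3). The libraries at 48 h lie between 0.625% and 0.741%, above the 0.302% to 0.468% of the libraries at 0 h, and 0 h replicate 2 is the lowest.

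Gene by gene, the rise was broad and modest in size. Of the 91 members, 81 had enough counts to be tested (at least 10 counts in at least 3 libraries), and 80 had at least 10 counts in all 6 libraries. With edgeR's quasi-likelihood test and adjustment over all 17037 genes tested, 53 of the 81 (65.4%) passed the threshold of 0.05 with a higher level at 48 h, where 21.4% of all genes tested were called higher. None was called lower, where 19.3% of all genes were. No member with a lower level reached an unadjusted p under 0.05 either, and DESeq2 and limma-voom called 0 members lower. The median log2 fold change of the 81 members was 0.54, against -0.003 for all genes tested, and 77 of the 81 were above 0. The middle 50% of the members lay between 0.40 and 0.68, and that of all genes tested, which include many at lower counts, between -0.43 and 0.42.

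The order of the libraries was read from the same TMM-normalized CPM. In 56 of the 81 members the lowest library at 48 h exceeded the highest at 0 h (27.8% of all genes tested), and in no member did they all lie below (25.0% of all genes tested). Without 0 h replicate 2, 42 members were called higher (20.4% of all genes tested) and 1 lower (Rpl22, 19.0% of all genes tested), with a median of 0.38, and each of the 53 genes called with all libraries still had a positive change. Without 48 h replicate 2, the library with the highest level of the 6 in 41 of the 81 members, 30 members were called higher (16.1% of all genes tested), with a median of 0.49. With each of the other 4 libraries left out, the members called higher were 62 without 0 h replicate 1 (18.4% of all genes tested), 43 without 0 h replicate 3 (18.3%), 39 without 48 h replicate 1 (16.4%) and 59 without 48 h replicate 3 (18.2%). A group of 27 members was called higher in the full comparison, in each of the 6 comparisons with a library left out and under 12 other ways of processing, apart from the scaling to the summed member counts described below, where 12.5% of all genes tested were.

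**Figure D2:**
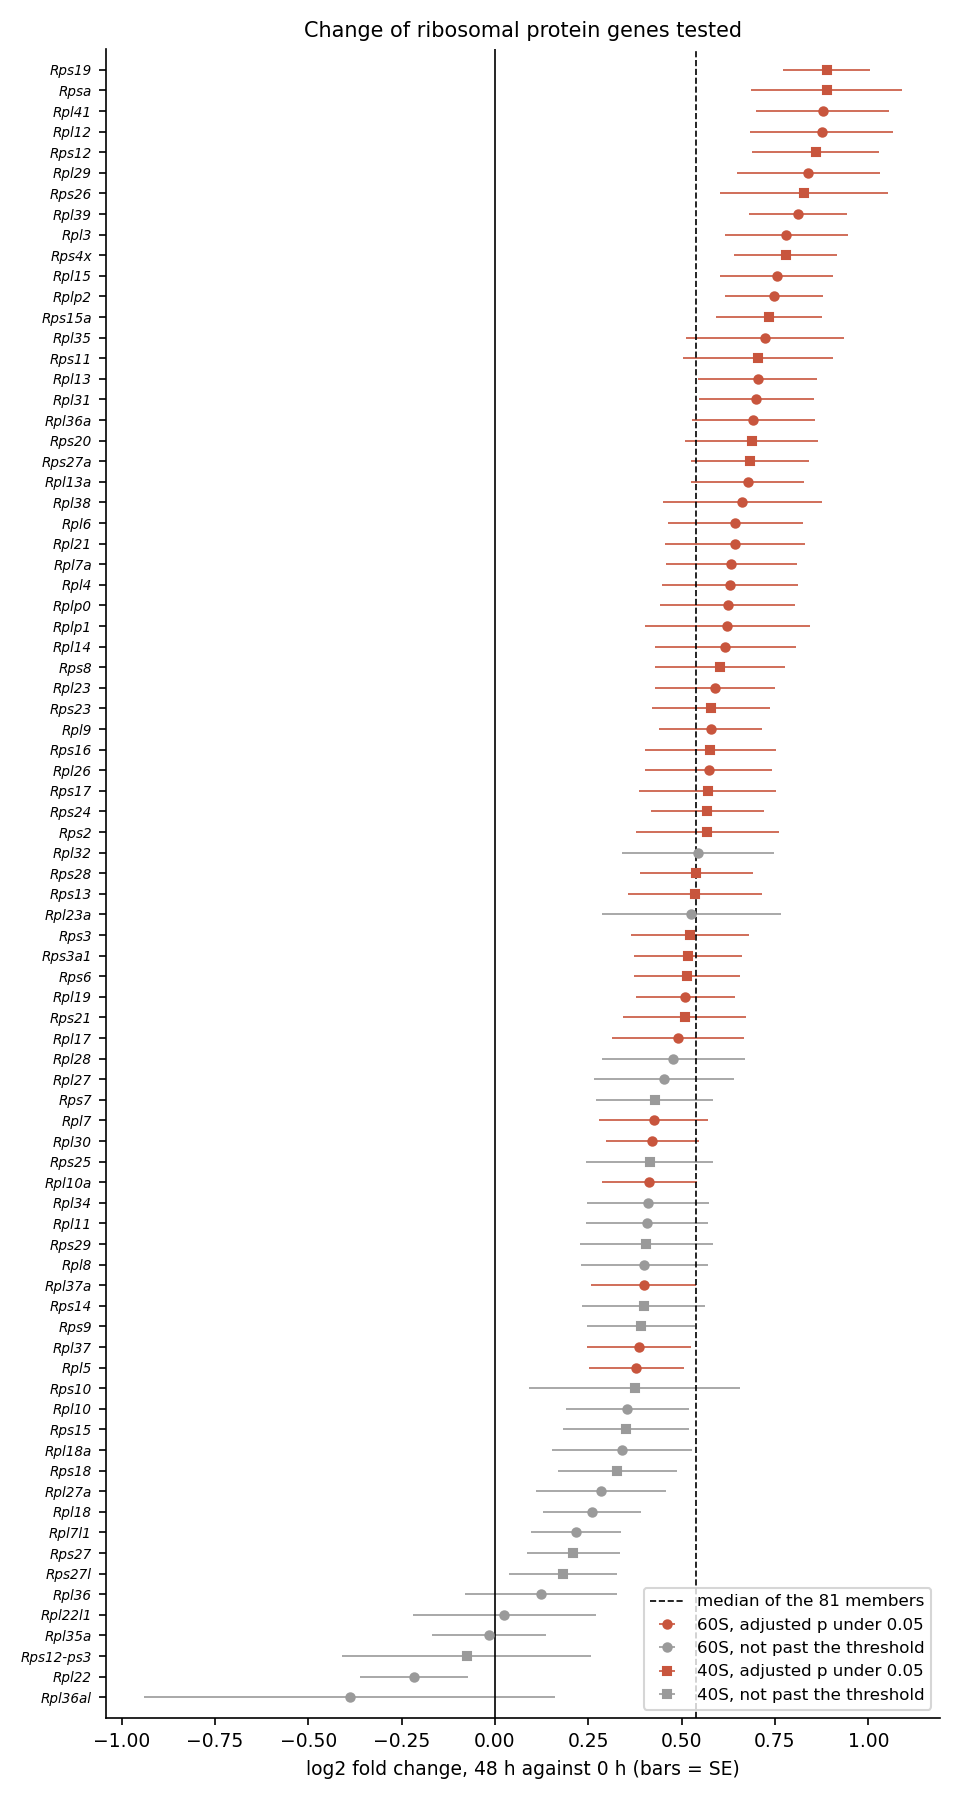
Each point is the log2 fold change (48 h against 0 h, bars = SE) of a ribosomal protein gene (80 of the 81 tested are drawn), sorted by size, with circles for 60S and squares for 40S members and red for an adjusted p under 0.05. The called members lie between 0.38 and 0.89, and the few members at or below 0 are at the foot of the plot.

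**Figure D3:**
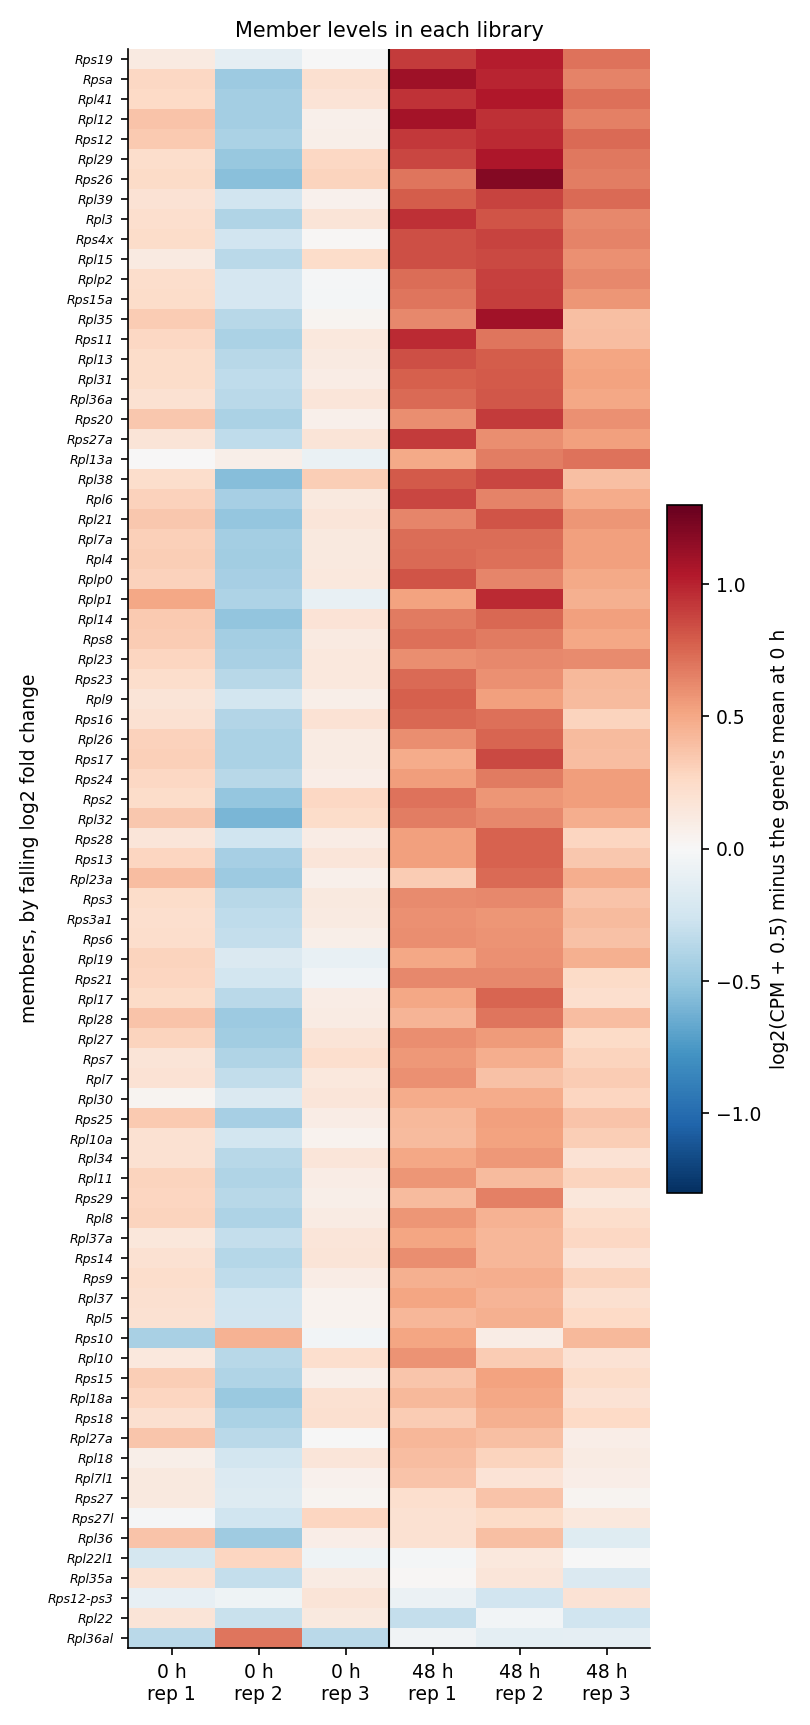
Colours give log2(CPM + 0.5) of 80 of the 81 tested members in each of the 6 libraries minus the gene's mean over the libraries at 0 h (red above, blue below). The column of 0 h replicate 2 is blue in nearly every row, and 48 h replicates 1 and 2 are the deepest red.

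Genes of both subunits rose. Among the core genes, 22 of 31 at 40S and 31 of the 45 tested at 60S were called higher, with medians of 0.57 for both. The difference between the subunits was not tested. All 53 called members were core genes. None of the 4 paralogs tested and not the 1 copy tested passed the threshold.

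The 8 largest increases among the called members were close to each other in size and came from both subunits. Rps19 (chr7:24884371-24889806), a 40S protein whose human counterpart was the first gene linked to Diamond-Blackfan anaemia, had 37.5, 31.9 and 34.5 CPM at 0 h and 65.4, 70.5 and 56.6 CPM at 48 h. Its libraries at 48 h were all well above those at 0 h, and its log2 fold change of 0.89 ± 0.12 (SE) had an adjusted p of 0.00018. Without 0 h replicate 2 the change was 0.82, with an adjusted p of 0.00076.

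Rpsa (chr9:120127689-120132369), the 40S protein also known as the laminin receptor, had 264, 157 and 252 CPM at 0 h and 469, 435 and 343 CPM at 48 h. The groups were separate, with a log2 fold change of 0.89 ± 0.20 and an adjusted p of 0.0055. Rpl41 (chr10:128548114-128549305), which encodes the smallest ribosomal protein, had 85.6, 52.4 and 80.5 CPM at 0 h and 137, 147 and 117 CPM at 48 h. Its change was 0.88 ± 0.18 (adjusted p = 0.0029). Rpl12, a protein at the base of the ribosomal stalk, had 66.1, 37.5 and 53.2 CPM at 0 h and 108, 99.1 and 80.5 CPM at 48 h, a change of 0.87 ± 0.19 (adjusted p = 0.0044).

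Rps12, a 40S protein, followed with 39.0, 22.9 and 32.4 CPM at 0 h and 58.6, 60.7 and 51.6 CPM at 48 h, a log2 fold change of 0.86 ± 0.17. The 60S protein gene Rpl29 went from 88.9 ± 24.0 to 159 ± 19.9 CPM (SD, n = 3), a change of 0.84 ± 0.19. Rps26, whose protein sits at the exit of the messenger RNA channel, went from 136, 77.8 and 140 CPM to 185, 261 and 180 CPM, a change of 0.83 ± 0.22. Rpl39, a small protein of the tunnel through which the new chain leaves, went from 16.3, 12.0 and 14.8 CPM to 24.9, 26.7 and 24.1 CPM, a change of 0.81 ± 0.13. In these 4 genes, too, no library at 48 h was below one at 0 h, and the adjusted p was 0.0025 for Rps12, 0.0057 for Rpl29, 0.0137 for Rps26 and 0.00075 for Rpl39. Rps26 lost its call without 48 h replicate 2 (adjusted p = 0.055), and the other 7 of the 8 kept it in all 19 comparisons, which do not include the scaling to the summed member counts described below. Without 0 h replicate 2 the log2 fold changes were 0.68 for Rpsa, 0.68 for Rpl41, 0.67 for Rpl12, 0.67 for Rps12, 0.62 for Rpl29, 0.59 for Rps26 and 0.69 for Rpl39, each smaller than with all libraries.

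The stalk proteins, which bind the translation factors that drive elongation, all rose. Rplp0, the base of the stalk, was at 184, 111 and 165 CPM at 0 h and at 265, 232 and 211 CPM at 48 h, a log2 fold change of 0.62 ± 0.18 (adjusted p = 0.0189) that lost its call without 48 h replicate 1. Rplp2 was at 47.5, 34.7 and 40.1 CPM and then at 67.1, 75.3 and 62.6 CPM, a change of 0.75 ± 0.13 (adjusted p = 0.0012). Rplp1, the partner of Rplp2 in the stalk, was at 180, 96.0 and 119 CPM and then at 184, 249 and 175 CPM. Its groups overlapped, and its change of 0.62 ± 0.22 had an adjusted p of 0.0452, which was 0.14 without 0 h replicate 2. The call was also lost without 0 h replicate 3 and without 48 h replicate 2, with a highest adjusted p of 0.166. Upper-quartile factors, TMM factors from protein-coding genes and a replicate block lost it too.

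Rpl5 and Rpl11 encode the pair that, with 5S ribosomal RNA, binds the ubiquitin ligase MDM2 when ribosome assembly fails and so stabilises p53. Rpl5 was at 56.3, 41.3 and 50.8 CPM at 0 h and at 66.5, 67.9 and 58.7 CPM at 48 h, a log2 fold change of 0.38 ± 0.13 (adjusted p = 0.0357). Rpl11 was at 59.5, 36.7 and 52.0 CPM and then at 72.6, 64.6 and 59.5 CPM, a change of 0.41 ± 0.16 (adjusted p = 0.0701). Both had all libraries at 48 h above those at 0 h, Rpl11 by less than the rounding of its closest values. Rpl5 lost its call without 0 h replicate 2 (adjusted p = 0.080), 0 h replicate 3 or 48 h replicates 1 or 2 (highest adjusted p = 0.11). The call of Rpl5 was also lost with upper-quartile factors and with a replicate block.

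Rps6, the protein that S6 kinases phosphorylate downstream of mTORC1, was at 69.9, 47.9 and 62.7 CPM at 0 h and at 90.6, 89.4 and 77.8 CPM at 48 h. Its log2 fold change of 0.51 ± 0.14 (adjusted p = 0.0155) kept its call in the same 19 comparisons. Rps3, a 40S protein at the entry of the messenger RNA, was at 96.5 ± 20.1 and then at 139 ± 13.2 CPM, a change of 0.52 ± 0.16 (adjusted p = 0.0229). Rps27a, which is made as a fusion with ubiquitin, rose from 22.4 ± 4.27 to 35.9 ± 5.21 CPM, a change of 0.68 ± 0.16 (adjusted p = 0.0060). Rpl38, known from a mouse mutant with skeletal patterning defects, rose from 22.4 ± 6.78 to 35.4 ± 6.02 CPM, a change of 0.66 ± 0.21 (adjusted p = 0.0303). Rps3 and Rpl38 both lost their calls without 48 h replicate 1 and without 48 h replicate 2.

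Other core members had a positive change that did not pass the threshold. Rps14, a 40S protein whose loss is linked to the 5q- syndrome in people, was at 37.1 ± 7.70 and 49.0 ± 7.37 CPM (log2 fold change 0.40 ± 0.16, adjusted p = 0.0775). Rps25, a 40S protein needed for initiation at some internal entry sites, was at 41.6, 24.2 and 35.1 CPM at 0 h and 44.1, 47.7 and 42.6 CPM at 48 h (0.41 ± 0.17, adjusted p = 0.0753). Rpl10, the protein whose joining completes the 60S subunit, was at 100.4 ± 20.6 and 128 ± 18.1 CPM (0.35 ± 0.16, adjusted p = 0.113). Rps15, a 40S protein near the decoding site, was at 82.4 ± 19.7 and 105 ± 10.8 CPM (0.35 ± 0.17, adjusted p = 0.121). In 17 of the 28 members tested and not called, the log2 fold change was above 0.3, and in 7 of the 28 (Rpl11, Rpl28, Rpl32, Rps7, Rps9, Rps18 and Rps25) the groups did not overlap. That separation, with 48 h above, was found in 27.8% of all genes tested, called or not.

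A few core genes had changes near or below 0 that did not pass the threshold, which does not show that they were unchanged. Rpl22 (chr4:152325742-152334071), a 60S protein that ribosomes can do without and that also binds viral and cellular RNAs, was at 24.6, 17.8 and 23.9 CPM at 0 h and at 17.6, 21.3 and 18.1 CPM at 48 h. Its groups overlapped, with a log2 fold change of -0.22 ± 0.15 (adjusted p = 0.263). Without 0 h replicate 2 it was called lower, at -0.36 with an adjusted p of 0.035. Rpl35a (chr16:33056453-33060189), another gene linked to Diamond-Blackfan anaemia, was at 23.4, 16.3 and 22.0 CPM and then at 20.5, 22.7 and 17.8 CPM, a change of -0.02 ± 0.15 (adjusted p = 0.940). Rpl36, a 60S protein, was at 34.0, 18.9 and 27.9 CPM and then at 30.2, 34.5 and 23.4 CPM, a change of 0.12 ± 0.20 (adjusted p = 0.658). Besides these 3, only Rps27, Rpl18 and Rpl27a among the core genes tested had a change below 0.3.

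To ask which members departed from the rest, the libraries were also scaled to the summed counts of the members instead of to all genes, a comparison added after the data had been seen. That scale holds the member sum equal in all libraries, so changes near 0 and few calls are largely set by it. All genes tested had a median log2 fold change of -0.62 on it, so their shares are no fair background for the members. On that scale 67 of the 81 members lay within 0.3 of 0 in log2 fold change, 0 were called higher (6.13% of all genes tested) and 2 were called lower (41.7% of all genes tested). The 2 were Rpl22 and Rpl35a, and 3 members had an unadjusted p under 0.05. Rpl22 held 0.491%, 0.558% and 0.521% of the member counts at 0 h and 0.265%, 0.315% and 0.321% at 48 h. Its log2 fold change within the pool was -0.80 ± 0.21 (adjusted p = 0.0050), and it passed in 5 of the 6 comparisons with a library left out, with a highest adjusted p of 0.051. Rpl35a held 0.467%, 0.513% and 0.479% at 0 h and 0.309%, 0.336% and 0.315% at 48 h, a change of -0.60 ± 0.21 (adjusted p = 0.0226) that passed in 2 of the 6 (highest adjusted p = 0.114). Over these 6 comparisons 0 to 1 members were called higher and 0 to 3 lower. Among all genes, 648 to 1572 were called higher and 4436 to 8228 lower, of 16427 to 16758 tested. In both genes every library at 48 h was below every library at 0 h, and 0 h replicate 2 had the highest share of the 6. Rpl36 went from 0.628% ± 0.0441 to 0.460% ± 0.0478 of the pool (-0.45 ± 0.20, adjusted p = 0.0748). At the other end, Rpsa went from 5.24% ± 0.282 to 6.53% ± 0.503 of the pool (0.32 ± 0.21, adjusted p = 0.222).

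Levels of different members were compared per length, as TMM-normalized CPM per kb of the principal coding transcript. At 0 h the highest were Rplp1 at 264 ± 87.1, Rps2 (a 40S protein at the messenger RNA entry) at 234 ± 64.2, Rps26 at 173 ± 50.9, Rps15 at 165 ± 39.4 and Rpl41 at 125 ± 30.7 CPM per kb (SD, n = 3). Neighbours in that order lay within their spread. Divided by the length of all annotated exons, Rplp1, Rps2 and Rps15 were still the top 3, but Rps26 was 8th and Rpl41 13th. The lowest tested members per kb were Rpl36al at 0.395 ± 0.358, Rps12-ps3 (0.511, 0.548 and 0.723 CPM before division by length) and Rps10 at 2.33 ± 0.877 CPM per kb. The order was nearly the same at 48 h (Spearman's rho 0.98 across the 81 members, which share the same libraries), and the log2 fold change and the log2 level at 0 h had a Pearson's r of 0.40 and a Spearman's rho of 0.09 across the same members.

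**Figure D4:**
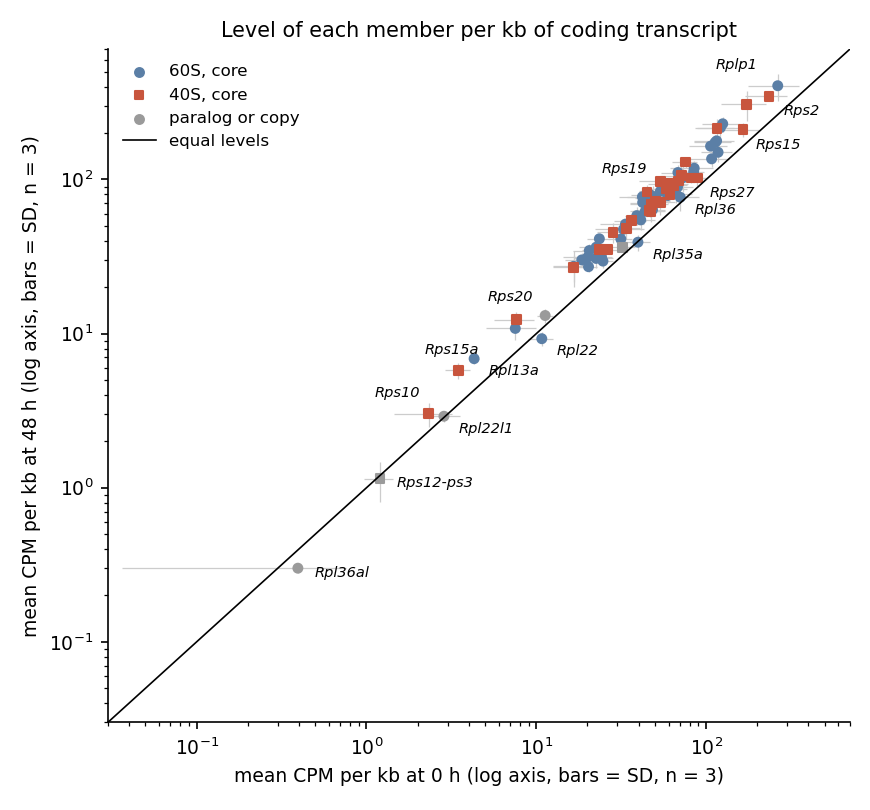
Each point is a ribosomal protein gene (80 of the 81 tested are drawn), with its mean CPM per kb of coding transcript at 0 h (x) and 48 h (y) on log axes, error bars of 1 SD (n = 3) and a line of equal levels. Most points lie just above the line over the whole range of levels, Rpl22 lies below it, and Rpl35a lies on it.

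Sequence shared with other genes can limit how levels can be compared between members. Ribosomal protein genes have many processed copies in the genome, and a median 51.3% of the 50-base stretches of the coding transcripts of the members tested also occur in transcripts of other annotated genes. That share was 43.2% for Rps19, 5.19% for Rpl22, 51.3% for Rpl35a, 98.6% for Rps27 and 100% for Rps12-ps3. The count files list 0 reads with more than 1 alignment, and how such reads were treated is not given in the sources used here. The 41 tested members with over 50% of shared stretches had a median log2 fold change of 0.54 and the other 40 had 0.56, with 28 and 25 called higher.

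Some members also overlap other genes. Rpl24, a core 60S gene, had 5, 14 and 8 counts at 0 h and 8, 4 and 16 at 48 h and was not tested, and 71.5% of its coding transcript lies in exons of the read-through gene Gm28037 on the same strand. Rps10 shares 53.6% with RPS10-NUDT3 and Rpl13a 59.3% with Gm45713, also on the same strand. Rpl35, Rpl30, Rpl23a, Rps25 and Rpl5 share 68.3%, 57.4%, 55.4%, 52.2% and 46.6% with genes on the opposite strand, and whether the counting used strand is not given in the sources used here. Rpl13a had 4.53, 4.77 and 4.22 CPM at 0 h and 6.53, 7.41 and 7.65 CPM at 48 h, an increase of 0.68 ± 0.15 (adjusted p = 0.0049). It was among the 5 members that were not lowest in 0 h replicate 2, with Rpl22l1, Rpl36al, Rps10 and Rps12-ps3, all low in counts. The 63 tested members with no overlap at all had a median of 0.57, with 43 called higher.

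The paralogs were lower than their partners and did not pass the threshold. Rpl22l1, whose product can stand in for RPL22, was at 1.58 ± 0.380 CPM at 0 h and 1.61 ± 0.136 CPM at 48 h (SD, n = 3), with overlapping groups (log2 fold change 0.03 ± 0.25, adjusted p = 0.944). Per kb it stood at 2.86 ± 0.688 against 10.8 ± 1.84 for Rpl22 at 0 h, and at 2.91 ± 0.246 against 9.27 ± 0.982 at 48 h. Neither gene of this pair passed the threshold. Rps27l, which is known as a p53 target, was at 15.6, 13.1 and 19.2 CPM and then at 18.2, 18.8 and 17.5 CPM (0.18 ± 0.14, adjusted p = 0.341), and its partner Rps27 changed by 0.21 ± 0.12 (adjusted p = 0.203). Rpl7l1, a nucleolar relative of Rpl7, changed by 0.22 ± 0.12 (adjusted p = 0.175), whereas Rpl7 rose by 0.43 ± 0.15 (adjusted p = 0.0402), a call lost with upper-quartile factors and without 0 h replicates 2 or 3 or 48 h replicates 1 or 2. Rpl36al was at 0.238, 1.03 and 0.241 CPM at 0 h and 0.416, 0.364 and 0.371 CPM at 48 h (-0.39 ± 0.55, adjusted p = 0.606), so its sign rested on 0 h replicate 2. Its partner Rpl36a rose by 0.69 ± 0.17 (adjusted p = 0.0072).

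The other paralogs and the copies were close to the limit of detection, where 3 counts correspond to 0.0825 to 0.0955 CPM before TMM scaling. Rpl3l, the striated-muscle form of Rpl3, had 13, 7 and 5 counts at 0 h and 7, 9 and 13 at 48 h, while Rpl3 rose by 0.78 ± 0.16 (adjusted p = 0.0035). Rpl39l, a testis form of Rpl39, had 0 counts in all libraries at 0 h and 1, 3 and 3 at 48 h. Rpl10l, the testis form of Rpl10, and the copy Rpl36-ps4 had 0 counts in every library. The remaining untested members, Rps27rt, Rpl9-ps1, Rpl9-ps6, Rpl10-ps3 and Rpl36a-ps1, had 0 to 10 counts per library. Rps12-ps3 was at 0.594 ± 0.113 and 0.566 ± 0.164 CPM (-0.08 ± 0.33, adjusted p = 0.875), and Rpl9, the partner of the Rpl9 copies, rose by 0.58 ± 0.14 (adjusted p = 0.0071). Together the 294 annotated pseudogenes with ribosomal protein names held 0.00325% ± 0.000541 of gene counts at 0 h and 0.00380% ± 0.000235 at 48 h, with overlapping groups.

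The start tract shown at the outset was also set beside the changes, with no test of the difference. The 12 tested members with a tract had a median log2 fold change of 0.57 with 8 called higher, and the 48 tested members with a window and no tract had 0.54 with 32 called higher. Members at both ends of the order lack it, since neither Rps19, Rpsa, Rpl41 and Rpl12 nor Rpl22 and Rpl35a have a C-led tract at the annotated base. Among those with a tract, Rpl15 rose by 0.75 ± 0.15 (adjusted p = 0.0027) and Rps15a by 0.73 ± 0.14 (adjusted p = 0.0022), while Rpl28 changed by 0.48 ± 0.19 (adjusted p = 0.0697).

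Around the ribosome, the genes of translation and its control moved in both directions. The lists for these were drawn up from general knowledge, hold 84 genes of which 83 were tested, and gave 34 genes higher and 7 lower, beside 21.4% higher and 19.3% lower among all genes tested. These shares are the background for each list below, and no list was tested against them. Of the 3 ribosomal protein genes with other names, which the naming rule left out, 1 was called higher and none lower. Rack1, a 40S protein, rose from 115 ± 24.7 to 190 ± 16.7 CPM (log2 fold change 0.72 ± 0.16, adjusted p = 0.0047). Fau, which encodes RPS30, was at 47.6 ± 11.6 and 57.1 ± 11.1 CPM (0.26 ± 0.19, adjusted p = 0.301).

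Of the translation initiation factors, 18 of 41 were called higher and 2 lower, with a median log2 fold change of 0.34. Eif6, which keeps the 60S subunit from joining too early, had the largest change, from 20.6 ± 3.29 to 51.2 ± 8.64 CPM (1.31 ± 0.15, adjusted p = 9.5e-05). Eif4e, the cap-binding protein, rose from 35.9 ± 5.41 to 78.7 ± 5.39 CPM (1.13 ± 0.13, adjusted p = 6.7e-05). Eif4a2, an RNA helicase, fell from 103 ± 7.41 to 66.8 ± 3.06 CPM (-0.62 ± 0.10, adjusted p = 0.00097), and Eif4b, its cofactor, from 175 ± 18.1 to 130.1 ± 2.41 CPM (-0.43 ± 0.12, adjusted p = 0.0134, lost without 0 h replicate 1 and with library size only).

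Of the elongation and release factors 6 of 10 were called higher and none lower, with a median of 0.40. The release factor Etf1 rose by 0.81 ± 0.10 and the ribosome recycling factor Abce1 by 0.78 ± 0.11 (adjusted p = 0.00014 and 0.00038). Among the ribosomal protein chaperones, which carry single new ribosomal proteins to the assembly site, 2 of 5 tested rose. These were Grwd1, the chaperone of RPL3, at 0.83 ± 0.17 (adjusted p = 0.0030), and Tsr2, that of RPS26, at 0.51 ± 0.17 (adjusted p = 0.0358). The call of Tsr2 was lost with upper-quartile or protein-coding TMM factors, with a replicate block and without 0 h replicates 2 or 3 or 48 h replicates 1 or 2.

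The non-ribosomal TOP mRNAs gave 9 of 18 higher and 1 lower, with a median of 0.43. Hnrnpa1, an RNA-binding protein, rose by 1.16 ± 0.10 (adjusted p = 1.5e-05) and Nap1l1, a histone chaperone, by 0.89 ± 0.12 (adjusted p = 0.00020), and Eif4b was the 1 lower. Of this list 11 genes also stand in the lists above.

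The regulators of TOP mRNAs and ribosome synthesis had a median of -0.19, with 3 of 17 higher and 5 lower, near the shares among all genes. Pdcd4, an inhibitor of eIF4A, fell from 92.6 ± 14.7 to 35.5 ± 1.35 CPM (-1.38 ± 0.13, adjusted p = 1.9e-05). Deptor, an inhibitor of mTOR, fell from 334 ± 12.3 to 159 ± 35.3 CPM (-1.07 ± 0.16, adjusted p = 0.00048). Eif4ebp1, which holds eIF4E until mTORC1 phosphorylates it, rose by 0.49 ± 0.13 (adjusted p = 0.0136). Mlst8, a subunit of the mTOR complexes, rose by 0.46 ± 0.15 (adjusted p = 0.0291). The call of Mlst8 was lost with upper-quartile or protein-coding TMM factors, with no filter on low counts and with a replicate block. It was also lost without 0 h replicates 1 or 3 or 48 h replicates 2 or 3. The other lower genes of this list were Tsc1, Rptor and Eif4ebp2.

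**Figure D5:**
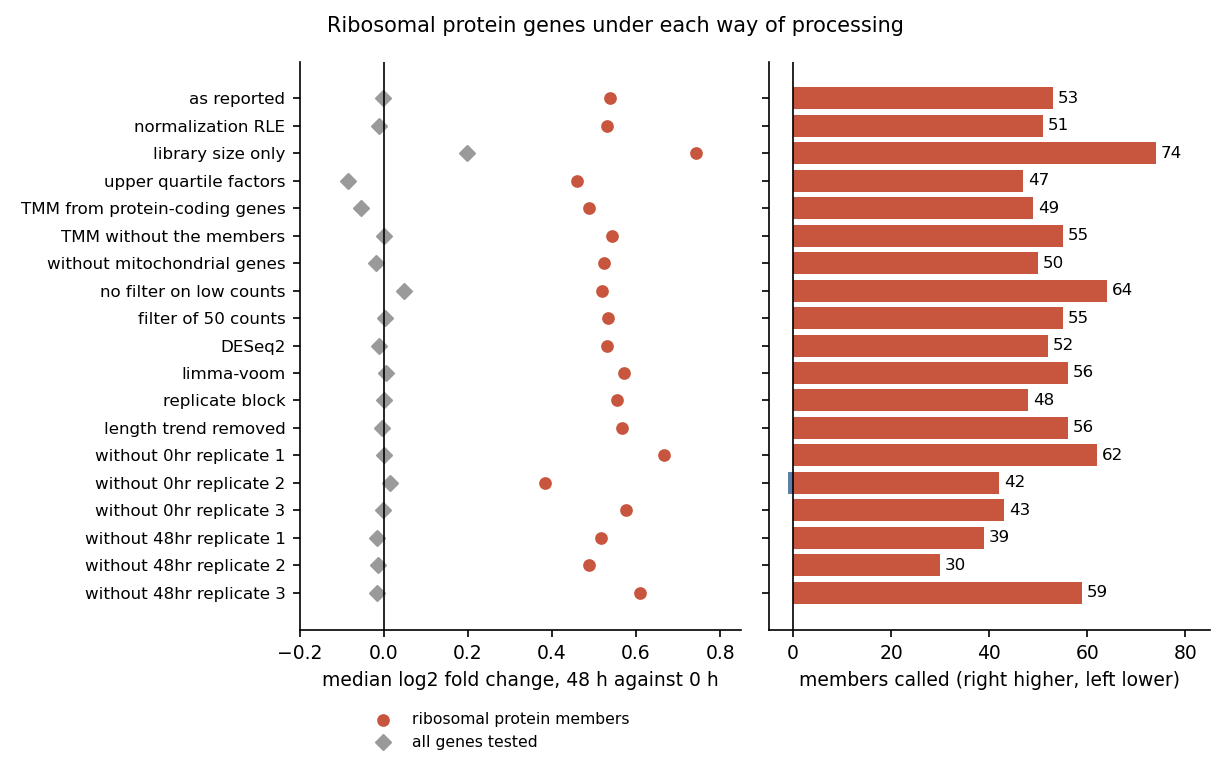
The left panel gives the median log2 fold change of the ribosomal protein members (red circles) and of all genes tested (grey diamonds) under 19 ways of processing (scaling to the summed member counts is not drawn), and the right panel the number of members called higher (red, to the right) or lower (blue, to the left). In these the member median lies between 0.38 and 0.74, and the counts of members called higher range from 30 without 48 h replicate 2 to 74 with scaling by library size alone, under which all genes shift by 0.20.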

How the data were processed

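RNA-Seq was performed on hepatocytes from 3 mice at 0 h and 3 mice at 48 h after PHx. The authors deposited raw counts per gene for each library. The submitters' processing notes name FastQC 0.11.5, Trim Galore 0.6.4, STAR 2.6, HTSeq 0.12.4, DESeq2 and mm10, and strand and counting mode are not given in the sources used here. Gene identifiers matched GENCODE M21. Unassigned reads (no gene, ambiguous) were left out of library sizes. Depth was 31419443 to 36346220 gene counts, so 3 counts equal 0.0825 to 0.0955 CPM, and such floors cover counting error only.

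Counts were tested with edgeR 4.0.16 (TMM, glmQLFit and glmQLFTest, time as the only term) in R 4.3.3 on 17037 genes that reached 10 counts in 3 or more libraries, with Benjamini-Hochberg adjustment over all of them and a threshold of 0.05. The SE is the log2 fold change divided by the square root of F. The test was checked on simulated counts, where false calls made up a larger share of calls than the threshold of 0.05. DESeq2 1.42.0 and limma-voom (limma 3.58.1) were alternatives. Other normalizations, filters on low counts, a replicate block, a correction for gene length and leaving out each library were also tried. Shared 50-base stretches were found by exact match in annotated transcripts on both strands. Promoter windows came from RefSeq (GRCm38.p6).

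Members, lists and comparisons were chosen with earlier results of these data known. Genes named are the 8 largest changes in each direction among called members, the 5 highest and 3 lowest levels per kb, paralogs and copies with their partners (a letter a, as in Rpl10a, marks a different protein), 17 members set for their known roles, and the 2 largest called changes in each direction per list. Other genes named were chosen after their values were seen. Single values of 2 genes are not reported here.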

Additional observations from a re-analysis of the deposited data

How the results depend on the processing

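The count of ribosomal protein genes called higher was within 1.5 times 53 under 12 other ways of processing (47 with upper-quartile factors to 74 with library size only), and ranged from 30 to 62 with 1 library left out, the lowest without 48 h replicate 2. Members called lower were 0 to 1 over the leave-outs (Rpl22 without 0 h replicate 2), and scaling to the summed member counts, added after the data were seen, gave 0 higher and 2 lower. The member median was 0.46 to 0.74, and 0.38 to 0.67 over the leave-outs. Among all genes, library size only gave 5308 higher and 2110 lower, against 3638 and 3288 with TMM (71.6% of calls higher against 52.5%), and it moved the median of all genes to 0.20, so that the member median relative to it was 0.54 in both. The split was 44.5% with upper-quartile factors. For the pathway lists, library size only gave 54 higher and 4 lower, against 34 and 7. The difference in summed share was 0.383 percentage points without the 20 most abundant other genes in the denominator, against 0.284, since the denominator is smaller, and 0.236 to 0.320 over the leave-outs. Over the leave-outs, all genes gave 2649 to 3395 higher and 2540 to 3166 lower, and the lists 24 to 32 and 5 to 10. Among the 37 named members tested, 622 of the values stayed as in the reported fit, called or not called. Another 25 lost a call and 17 gained one, and no called change turned its direction.

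The replicate block gave 48 members higher and 0 lower, with a median of 0.56, 3237 of all genes higher and 2884 lower, and 29 and 7 list genes, so it moved no count by over 1.5 times. Rplp1, Rpl5, Mlst8 and Tsr2 did not pass the threshold under it, and Rpl11 did. Same-numbered libraries deviated together with r of 0.04, -0.09 and -0.17 across genes, so the numbers were taken as names and not as pairs. With 3 libraries a group, changes under about 0.4 on the log2 scale were mostly not called, and a member that missed the threshold is not shown to be unchanged.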
